A study of Mus musculus with 6 samples.

Results

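The genes that make, move, degrade and sense prostaglandin E2 (PGE2) were followed along their route in 6 mouse pancreatic ductal adenocarcinoma cell lines. They are 10 listed genes of the 56953 in the count table, matched by symbol through the GENCODE vM21 annotation of GRCm38, which also gives the chromosomes below: Pla2g4a, Ptgs1, Ptgs2, Ptges, Ptges2, Ptges3, Abcc4, Slco2a1, Hpgd and Ptger4. The lines are KPC142, KPC180, KPC469, KPC490, KPC630 and KPC850, each sequenced as 1 library, so no value below has a replicate error. All carry the strain name KPC, a mouse model of pancreatic cancer. The alleles, the driver of recombination, treatment, age and whether a line is a clone are not given in the sources used here. The study concerns lines whose tumours draw in few or many CD8+ T cells, but the labels assign no line to a high or low infiltration class. The lines are therefore described side by side, without groups and without tests.

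PGE2 is a lipid signal made in steps. A phospholipase frees arachidonic acid from membranes, a cyclooxygenase turns it into prostaglandin H2, and a prostaglandin E synthase turns that into PGE2. The lipid leaves the cell partly through a transporter, acts on EP receptors at the cell surface, and is cleared by re-uptake and oxidation inside cells. In tumours it is known for dampening T cells, dendritic cells and NK cells.

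Library totals lay between 16471558 and 18701274 counts, and values are CPM, the counts of a gene scaled to a common library total, on totals adjusted by TMM factors of 0.986 to 1.01. At this depth 1 count was worth 0.0532 to 0.0607 CPM. Intervals are 95% intervals for counting error only, and say nothing of how a line would vary between cultures. Keratin genes of ductal epithelium were present in every line, Krt8 at 843 to 4180 CPM. Epcam, another epithelial marker, was at 0.243 to 10.5 CPM, and under 1 CPM in KPC180 and KPC850. Sox9 was at 4.55 to 43.4 CPM. The summed level of 7 epithelial and ductal markers ran from 2861 to 11826 CPM, with the sum, Krt7, Krt8 and Krt18 lowest in KPC469. Krt19, Cdh1, Epcam and Sox9 were lowest in other lines, and Sox9 was highest in KPC469 (43.4 CPM). The part of this in the KPC469 values below was not tested. Of 24 markers of myeloid and mast cells, T cells, fibroblasts, endothelium and acinar cells, 5 reached 1 CPM in a line. These 5 were Cd68, Col1a1, Pdgfra, Kdr and Cela1, and Adgre1, Cpa3, Cd3d, Cd4, Dcn, Lum, Cpa1 and Amy2a5 had 0 counts in every line. Summed levels reached 20.9 CPM for the acinar markers, nearly all from Cela1 in KPC180, 4.63 for myeloid and mast cells, 4.25 for fibroblasts, 2.61 for endothelium and 0.0607 for T cells.

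Phospholipase, cyclooxygenase, synthase and transporter genes were present in all 6 lines, and KPC469 and KPC630 stood apart at different steps. KPC469 had the most Ptgs2 and almost no Ptges, while KPC630 had the least Ptgs2, much Ptgs1 and, alone among the lines, a clear level of the degrading enzyme gene Hpgd. Of the 10 genes, 6 differed at least 4-fold between their highest and lowest lines: Ptgs1, Ptgs2, Ptges, Slco2a1, Hpgd and Ptger4. A filter asking for about 10 counts in every line kept 8 of the genes, 4 of them with such a range, where 13.8% of all 11531 kept genes had one. The filter removed Ptges and Hpgd, each nearly silent in at least 1 line. A wider set takes every gene that reached 10 CPM in 1 line or more; there the figures were 5 of 9 genes, against 15.5% of all 10234. In 2 of these 9 genes, Ptges and Hpgd, the highest or lowest line was separated from the next by a gap past Dixon's 95% critical value, as in 6.69% of the wider set. A gene can enter the wider set through its highest line alone, and the genes were listed with their values in these lines known, so the counts describe them and support nothing further. The median range was 4.59-fold over the 8 genes that passed the filter and 1.95-fold over all kept genes. With Ptges and Hpgd added, the median over the 10 genes was 8.82-fold.

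**Figure D1:**
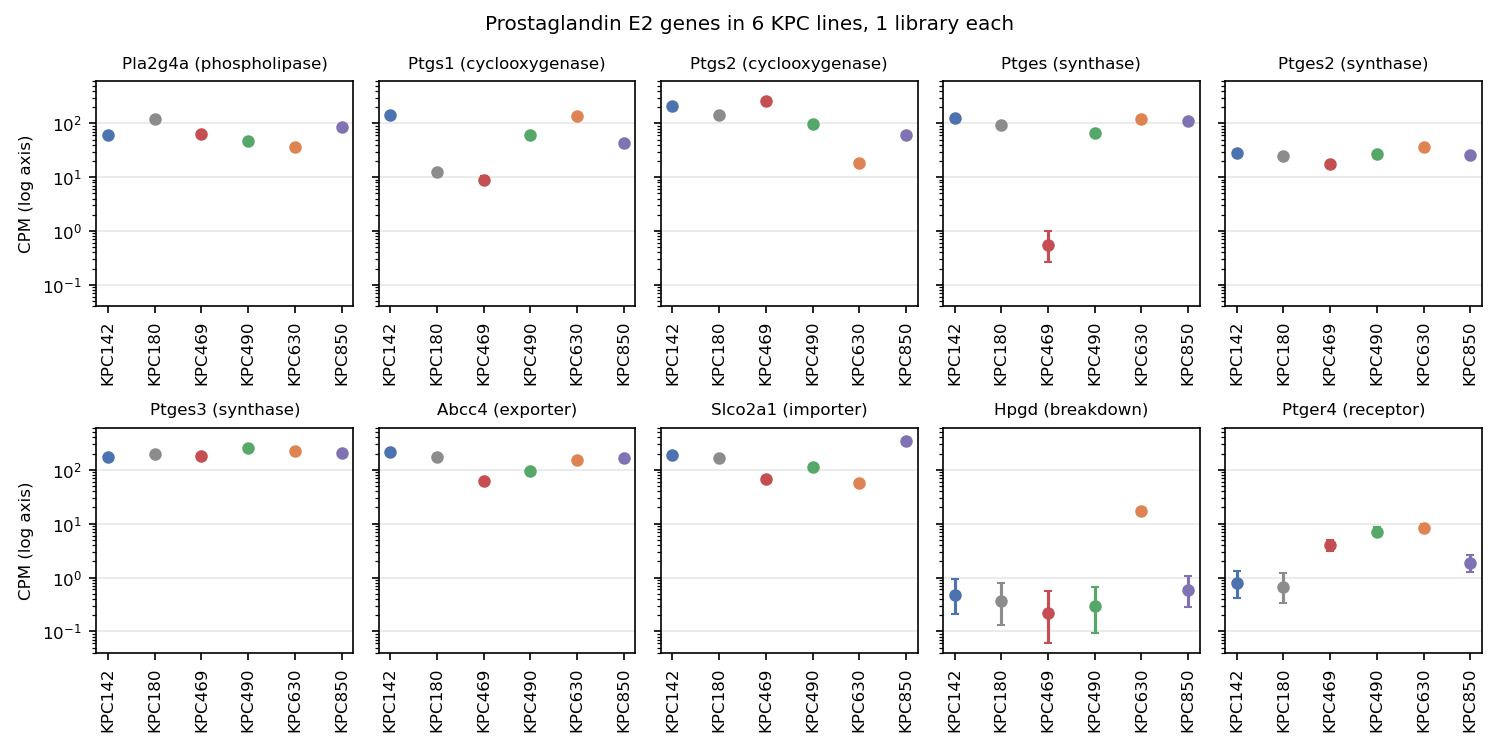
Level of each of the 10 genes in each cell line, in CPM on a log axis, 1 point per line, with bars for the 95% Poisson counting interval (smaller than the point where not seen). Ptges drops to 0.545 CPM in KPC469 and Hpgd rises to 17.0 CPM in KPC630, while Ptges3 stays between 175 and 251 CPM.

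**Figure D2:**
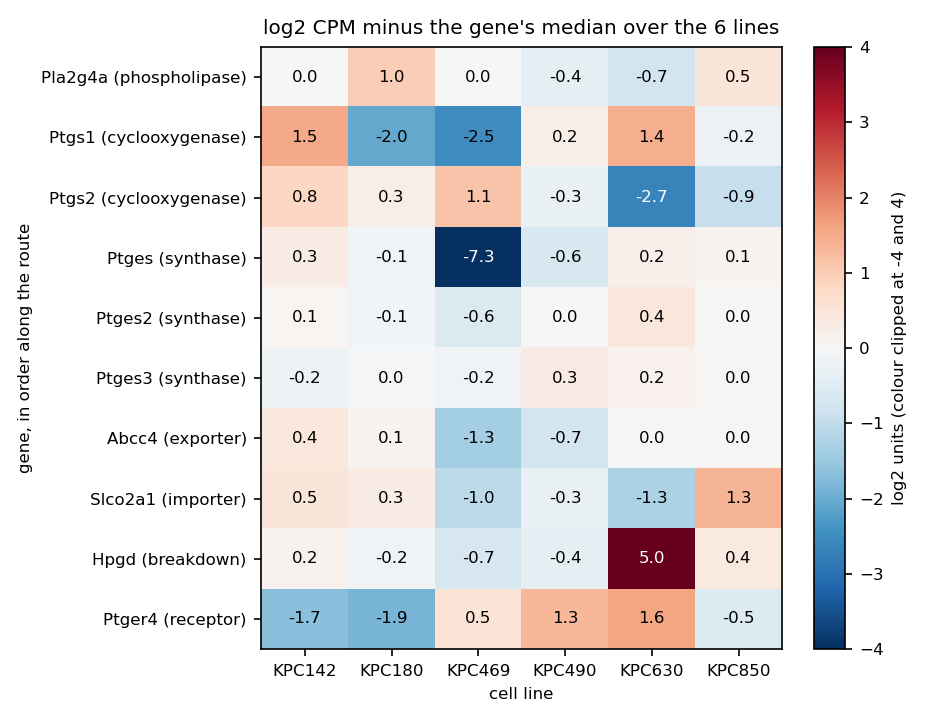
Difference of each line from the gene's median over the 6 lines, in log2 units, with genes in rows along the route and lines in columns; the colour scale ends 4 units either side of 0. The darkest cells are Ptges in KPC469 (-7.29) and Hpgd in KPC630 (5.01).

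Pla2g4a (ENSMUSG00000056220, chromosome 1) encodes cytosolic phospholipase A2 alpha, which frees arachidonic acid from membrane phospholipids. It stood at 121 CPM in KPC180, 87.1 in KPC850, 62.3 in KPC469, 60.9 in KPC142, 47.2 in KPC490 and 36.8 in KPC630. KPC180 was the high line and KPC630 the low one, 3.29-fold apart (3.02 to 3.59). KPC142 and KPC469 could not be separated at this depth (ratio 1.02, 0.939 to 1.11), and each other step in the order exceeded counting error.

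Ptgs1 (ENSMUSG00000047250, chromosome 2) and Ptgs2 (ENSMUSG00000032487, chromosome 1) encode the cyclooxygenases COX-1 and COX-2, the first known mostly as a constant form and the second as an inducible one. Ptgs2 was at 259 CPM in KPC469, 209 in KPC142, 141 in KPC180, 97.4 in KPC490, 61.7 in KPC850 and 18.4 in KPC630. The highest and lowest lines were 14.1-fold apart (12.6 to 15.7), and every step in this order exceeded counting error. KPC630 lay 2.93 log2 units below the median of the other lines (a log2 ratio of -2.93), and KPC469 lay 1.41 above it.

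Ptgs1 took another order. It was at 146 CPM in KPC142 and 139 in KPC630, at 59.8 in KPC490 and 43.3 in KPC850, and at 12.3 in KPC180 and 9.04 in KPC469, a 16.1-fold range (13.8 to 19.0). KPC142 was high in both cyclooxygenase genes, KPC469 and KPC180 were high in Ptgs2 and low in Ptgs1, and KPC630 was high in Ptgs1 and lowest in Ptgs2. The levels of KPC142 and KPC630 could not be separated for Ptgs1 (ratio 1.05, 0.994 to 1.11).

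Levels of different genes can be compared only per length, so CPM was divided by the length of the annotated exons. On that scale Ptgs2 made up 96.0% of the cyclooxygenase transcripts in KPC469 (95.4 to 96.6, exact Clopper-Pearson interval) and 90.7% in KPC180 (89.4 to 91.9). The share was 54.8% to 58.0% in KPC142, KPC490 and KPC850, and it was 10.1% in KPC630 (9.13 to 11.2). With the longest transcript as the length, the shares in KPC142 and KPC850 were 48.0% and 47.9%, so which of the genes led there depends on the length used. Summed over both genes, KPC142 had 83.1 CPM per kb and KPC469 58.9. The other lines lay between 24.6 in KPC850 and 39.7 in KPC630: the low Ptgs2 of KPC630 stood beside a Ptgs1 level that placed its sum above KPC180, KPC490 and KPC850.

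**Figure D3:**
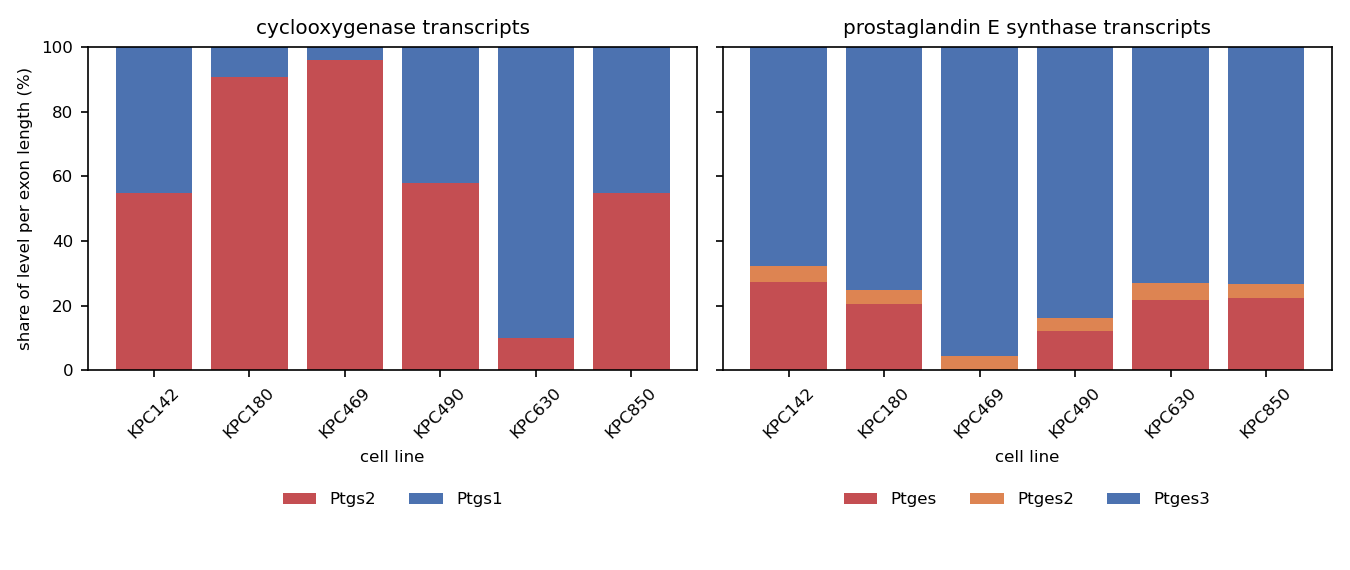
Share of each gene in the summed level per exon length, in percent, for the cyclooxygenase genes (left) and the prostaglandin E synthase genes (right), 1 bar per line. Ptgs2 fills 96.0% of the left bar in KPC469 and 10.1% in KPC630, and Ptges falls to 0.164% of the right bar in KPC469.

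The synthase step held the widest difference. Ptges (ENSMUSG00000050737, chromosome 2) encodes microsomal prostaglandin E synthase 1, the inducible synthase that is usually coupled to COX-2. It stood at 125 CPM in KPC142, 118 in KPC630, 112 in KPC850, 94.7 in KPC180 and 65.7 in KPC490, and at 0.545 CPM in KPC469, from 10 counts. In KPC469 the level was 120.6-fold under that of the next line, KPC490 (65.3 to 252), and 230-fold under KPC142 (125 to 481). The 5 other lines lay within 1.91-fold of each other, and KPC630 could not be separated from KPC850 or from KPC142. Of all genes in the wider set, 0.762% were lowest in KPC469 by 4-fold or more, and Ptges was the only one of the 9 PGE2 genes at that level among them.

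Ptgs2 and Ptges thus stood at opposite ends in KPC469, and their promoters are shown for that reason, as RefSeq gives them on GRCm38.p6, 300 bases from 250 before to 50 after the start, 5′ to 3′ on the gene's strand. Capitals mark matches to any of 7 motifs searched on both strands: the TATA box TATAAA, the E-box CACGTG, the short cyclic AMP element CGTCA, its full form TGACGTCA, the GC box GGGCGG, the Egr element GCGGGGGCG and the AP-1 element TGANTCA. The short cyclic AMP element lies within the full one, and the GC box can overlap the Egr element. The Ptgs2 promoter is at chr1:150099781-150100080 on the plus strand and the Ptges promoter at chr2:30903248-30903547 on the minus strand.
Ptgs2: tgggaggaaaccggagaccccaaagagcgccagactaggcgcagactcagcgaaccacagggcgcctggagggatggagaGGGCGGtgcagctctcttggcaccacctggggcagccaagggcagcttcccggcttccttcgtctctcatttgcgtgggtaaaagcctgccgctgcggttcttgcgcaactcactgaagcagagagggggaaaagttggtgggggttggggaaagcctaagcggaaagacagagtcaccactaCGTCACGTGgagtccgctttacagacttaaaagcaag
Ptges: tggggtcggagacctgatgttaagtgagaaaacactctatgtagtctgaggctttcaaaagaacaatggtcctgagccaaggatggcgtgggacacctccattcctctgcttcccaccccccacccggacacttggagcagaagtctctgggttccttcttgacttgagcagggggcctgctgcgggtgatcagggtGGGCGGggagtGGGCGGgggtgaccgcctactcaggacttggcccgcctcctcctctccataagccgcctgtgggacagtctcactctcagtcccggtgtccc

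In the Ptgs2 window the short cyclic AMP element and the E-box overlapped just after the annotated start, at positions 14 and 17, and a GC box stood at -170. In the Ptges window the GC box occurred in 2 copies, at -53 and -42, and the other 6 motifs were not found. Among 32851 promoters of this length, 35.7% held a GC box, 20.8% the short cyclic AMP element, 13.6% a TATA box and 7.15% the E-box. The AP-1 element was held by 7.81%, the Egr element by 2.91% and the full cyclic AMP element by 1.79%. Both windows were of like base composition, with 59.3% and 60.0% G and C. These matches describe the reference sequence, and no binding or promoter activity was measured.

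The remaining synthase genes varied less between lines. Ptges3 (ENSMUSG00000071072, chromosome 10) encodes p23, a co-chaperone of Hsp90 that is also described as the cytosolic synthase, and it was at 251 CPM in KPC490, 223 in KPC630, 205 in KPC850, 194 in KPC180, 179 in KPC469 and 175 in KPC142. Its 1.43-fold range was the narrowest of the 10 genes. Ptges2 (ENSMUSG00000026820, chromosome 2), microsomal synthase 2, was at 36.6 CPM in KPC630, 28.0 in KPC142, 27.2 in KPC490, 26.3 in KPC850, 24.9 in KPC180 and 17.8 in KPC469, a range of 2.05-fold (1.80 to 2.35). KPC469 was thus lowest in Ptges2 as well as in Ptges, while the 4 lines in the middle of the Ptges2 order were neighbours that could not be separated. A processed pseudogene, Ptges3-ps, took 21 to 46 counts per line, so little of the Ptges3 signal was assigned to it.

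Per exon length, Ptges made up 27.4% of the synthase transcripts in KPC142, 22.5% in KPC850, 21.8% in KPC630, 20.7% in KPC180 and 12.3% in KPC490. In KPC469 its share was 0.164% (0.0786 to 0.301), and Ptges3 made up 95.7%. Ptges3 held the largest share in all 6 lines, 67.8% or more, and Ptges2 held 3.98% to 5.25%. The sum over the synthase genes ran only from 84.5 CPM per kb in KPC469 to 138 in KPC630, since Ptges3 carried most of it.

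Transport followed. Abcc4 (ENSMUSG00000032849, chromosome 14) encodes MRP4, a pump that exports PGE2 among other anions. It was at 214 CPM in KPC142, 173 in KPC180, 164 in KPC850, 156 in KPC630, 95.8 in KPC490 and 62.7 in KPC469, a 3.41-fold range (3.19 to 3.65). Slco2a1 (ENSMUSG00000032548, chromosome 9) encodes the prostaglandin transporter PGT, which takes PGE2 back into cells. It stood at 347 CPM in KPC850, 192 in KPC142, 166 in KPC180, 112 in KPC490, 66.5 in KPC469 and 56.2 in KPC630, a 6.18-fold range (5.79 to 6.60). KPC469 was low for both transporter genes, and KPC630 was low for the importer only. Per exon length Slco2a1 made up 14.5% of the pair in KPC630 and equalled Abcc4 in KPC850 (48.9% to 51.2%, exact interval), with 29.8% to 35.6% in the other lines. With the longest transcript as the length these shares were higher, 22.5% in KPC630 and 63.0% in KPC850, and the lines at the ends were the same.

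The gene for breakdown had more than 10 counts only in KPC630. Hpgd (ENSMUSG00000031613, chromosome 8) encodes 15-hydroxyprostaglandin dehydrogenase, which oxidizes PGE2 to an inactive form. It was at 17.0 CPM in KPC630 from 320 counts, and at 0.583 CPM in KPC850, 0.479 in KPC142, 0.364 in KPC180, 0.290 in KPC490 and 0.218 in KPC469, from 4 to 10 counts. KPC630 lay 29.2-fold above the next line, KPC850 (15.7 to 61.5), and the 5 low lines could not be ordered. Of all genes in the wider set, 0.156% were highest in KPC630 by 4-fold or more, and Hpgd was the only PGE2 gene among them. Hpgd entered the wider set through KPC630 alone, which fixed this outcome, so the share does not say how rare it is. An unnamed transcript model on the same strand, Gm45540, overlaps Hpgd and had 0 to 20 counts.

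The ratio of Ptges to Hpgd, both per exon length, differed between the lines. It was 112 in KPC142, 111 in KPC180, 96.8 in KPC490 and 82.2 in KPC850. It was 2.97 in KPC630, where Hpgd was high, and 1.07 in KPC469, where both were low. The counts of Hpgd behind the high ratios were 10 or fewer, and the ratio in KPC469 rests on 10 counts of Ptges and 4 of Hpgd. No interval was computed for these ratios, so their differences were not set against counting error. The Hpgd promoter is shown because the gene was high in a single line. It is the RefSeq window at chr8:56294302-56294601 on GRCm38.p6, plus strand, with 58.0% G and C, and capitals mark the same motifs.
Hpgd: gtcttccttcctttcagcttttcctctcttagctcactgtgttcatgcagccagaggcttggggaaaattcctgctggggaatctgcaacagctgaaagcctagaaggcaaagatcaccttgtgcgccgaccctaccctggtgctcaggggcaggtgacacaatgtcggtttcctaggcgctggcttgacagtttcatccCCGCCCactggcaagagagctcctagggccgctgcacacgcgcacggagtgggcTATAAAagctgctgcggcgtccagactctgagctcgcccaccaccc

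This window held a TATA box match at position 5 after the annotated start and a GC box on the minus strand at -50. Of the 10 genes, Slco2a1 also had a TATA box match, at -29, and Pla2g4a had it in the window of its other start, at -200 on the minus strand. The full cyclic AMP, Egr and AP-1 elements were found in none of the 12 windows of the 10 genes.

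Genes beside Ptges, Ptgs2 and Hpgd on their chromosomes were read in the same lines, taking the nearest 2 on each side with a median of at least 5 CPM. In KPC469 the neighbours of Ptges stood at 44.8 CPM (Asb6), 38.7 (Prrx2), 94.4 (Tor1b) and 33.02 (Tor1a). Each of these lay within the range of the other 5 lines, so the low level in KPC469 was not shared by the genes on either side. In KPC630 the neighbours of Hpgd stood at 14.9 CPM (Neil3), 108 (Spcs3), 10.01 (Cep44) and 13.8 (Fbxo8), again within the range of the other lines. Ptgs2 has Pla2g4a as a neighbour, and KPC630 was lowest for both, at 18.4 and 36.8 CPM. Uchl5, Tpr and Odr4 were also lowest in KPC630, but their ranges over the lines were 1.48-fold to 1.56-fold.

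**Figure D4:**
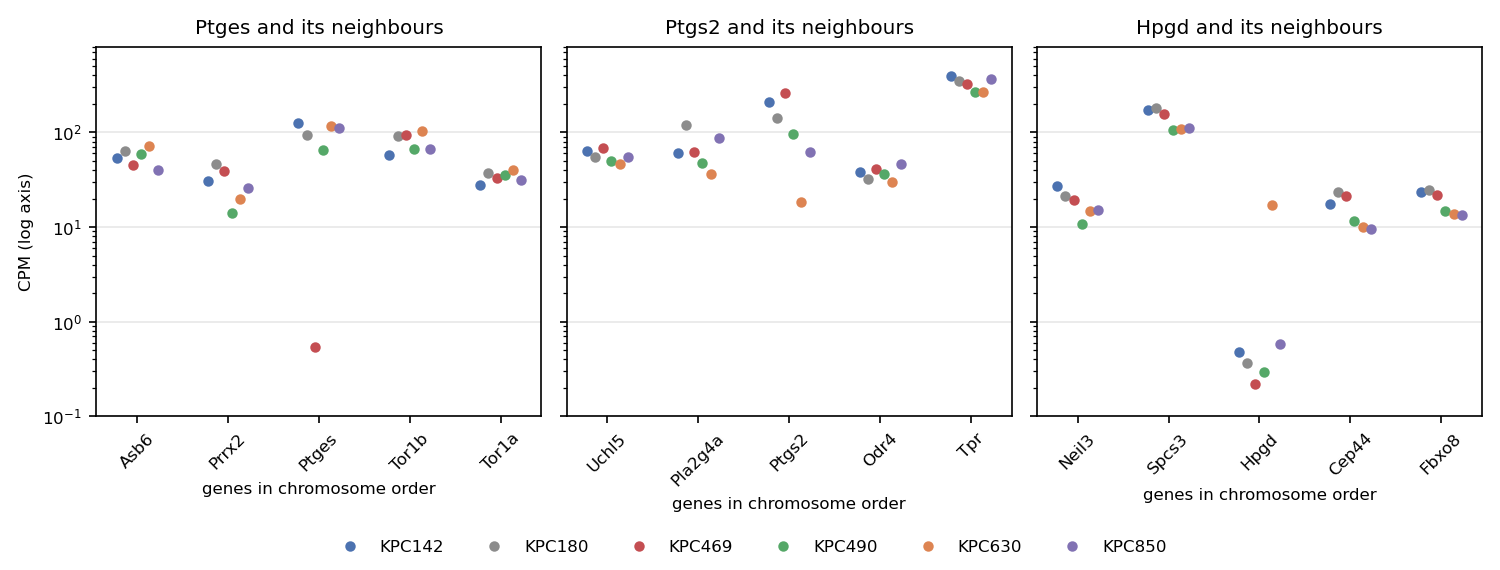
CPM on a log axis of Ptges, Ptgs2 and Hpgd with the nearest 2 expressed genes on each side, in chromosome order and with 1 point per line. Ptges in KPC469 (0.545 CPM) and Hpgd in KPC630 (17.0 CPM) stand apart while their neighbours keep within 3.35-fold.

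A noncoding RNA gene, Ptgs2os, is named for the strand opposite Ptgs2, and its position was not examined here. It was chosen after its values were seen. It had 56 counts in KPC142, 46 in KPC469, 18 in KPC180, 13 in KPC850, 11 in KPC490 and 2 in KPC630. KPC142 and KPC469 were the high lines and KPC630 the low line for this RNA as for Ptgs2. A similarly named gene, Ptgs2os2, also chosen after its values were seen, had another order. It had 41 counts in KPC850, 27 in KPC490, 20 in KPC630, 7 in KPC469 and 2 each in KPC142 and KPC180. The kit marks strand, but whether the counting used it is not given in the sources used here.

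Ptger4 (ENSMUSG00000039942, chromosome 15) encodes EP4, a PGE2 receptor that raises cyclic AMP. It was at 8.41 CPM in KPC630, 7.14 in KPC490, 4.03 in KPC469, 1.87 in KPC850, 0.779 in KPC142 and 0.668 in KPC180, from 11 to 158 counts. The range was 12.6-fold (6.85 to 25.8), and neither KPC630 and KPC490 nor KPC142 and KPC180 could be separated. The lines with the most Ptgs2 after KPC469, KPC142 and KPC180, had the least Ptger4. The Ptger4 gene overlaps Ttc33 on the opposite strand, which had 452 to 854 counts per line, so some reads could be assigned to either.

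**Figure D5:**
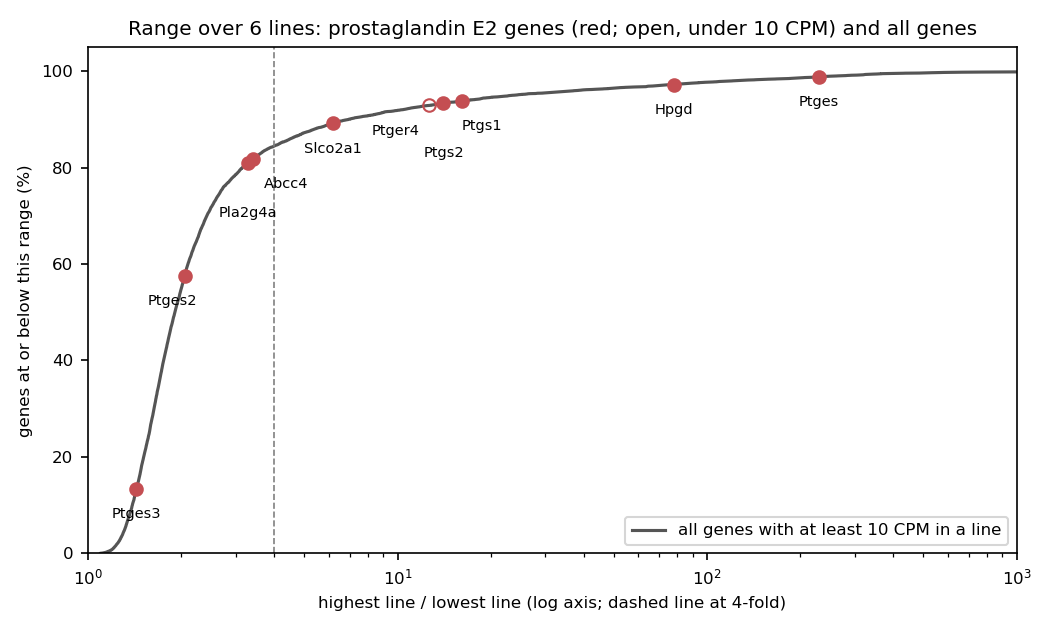
Range of each gene over the 6 lines, as highest over lowest CPM on a log axis, against the percentage of genes reaching 10 CPM in 1 line or more that have this range or a smaller one (grey curve). The 10 genes are red, Ptger4 open because it stays under 10 CPM, and 6 of them lie to the right of the dashed line at 4-fold.

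By line, KPC469 was lowest in 5 of the 10 genes (Ptgs1, Ptges, Ptges2, Abcc4 and Hpgd) and highest in Ptgs2. KPC630 was lowest in Pla2g4a, Ptgs2 and Slco2a1 and highest in Ptges2, Hpgd and Ptger4. KPC142 was highest in Ptgs1, Ptges and Abcc4, and KPC850 in Slco2a1. Over the 50 pairs of lines that neighbour each other in a gene's order, 15 differed by no more than counting error. Ptgs2 and Slco2a1 had 0 such pairs out of 5, and Hpgd had 4.

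Around these genes, 86 others in 9 lists were read: 56 reached 1 CPM in a line, 51 passed the filter, and 13 of those had a range of 4-fold or more, where 13.8% of all kept genes had one. Of 16 other lipases, 9 passed the filter and 2 had such a range. Pla2g7, which degrades platelet-activating factor, was at 40.9 CPM in KPC469 and at 2.40 in KPC142, and Pla2g15, a lysosomal phospholipase, ran from 8.71 in KPC490 to 35.5 in KPC180. Secreted Pla2g2a had 0 counts in every line. Of 9 genes that make or store arachidonic acid, 7 passed and 1 was wide: Fads2, a fatty acid desaturase, was lowest in KPC469 (40.2 CPM) and highest in KPC850 (366 CPM).

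Of 8 synthase genes for other prostanoids, 2 passed the filter, Akr1b3 and Cbr1, and of 8 lipoxygenase and leukotriene genes 1 did, Lta4h. Akr1b3, an aldose reductase that can act as a prostaglandin F synthase, was at 168 CPM in KPC490 and 382 in KPC142, a range of 2.28-fold. Cbr1, a carbonyl reductase that can convert PGE2 to prostaglandin F2 alpha, was at 76.9 CPM in KPC850 and at 13.8 to 27.9 in the other lines. Of 4 genes for further breakdown, Ptgr1, which reduces the oxidized prostaglandin, was at 117 CPM in KPC850 and 106 in KPC630 against 24.9 to 33.6 in the others. KPC630 was thus high in both Hpgd and Ptgr1, and KPC850 in Ptgr1 alone. Of 3 other transporter genes, Slco3a1 had 0 counts in KPC142 while the other 5 lines spanned 2.62 to 13.2 CPM, a gap to KPC850 of at least 73.3-fold when KPC142 is set to the floor of 3 counts.

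Among 8 other prostanoid receptors only Ptger1, encoding EP1, reached 1 CPM, with 7.90 CPM in KPC469 and 1.49 in KPC630 (5.30-fold, 3.52 to 8.25). KPC630, the line with the most Ptger4, therefore had the least Ptger1. Of 15 genes of cyclic AMP signalling, 13 passed the filter and 1 of these was wide. That was Adcy7, an adenylyl cyclase gene, at 34.7 CPM in KPC469 and 2.09 in KPC490. Adcy3, another cyclase gene, did not pass the filter, with 0.240 CPM in KPC142 and 0.175 in KPC850 (3 counts) against 7.20 to 12.8 CPM in the other 4 lines.

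Of 15 genes known to regulate Ptgs2 or Ptges mRNA, 13 passed the filter and 6 had a range of 4-fold or more, beside the 13.8% of all kept genes. The list was chosen with earlier results of these data known. Cebpd, a transcription factor induced by inflammation, was at 48.1 CPM in KPC469, 19.0 in KPC490 and 2.04 in KPC142. Egr1, a transcription factor known to act on the Ptges promoter, was at 63.1 CPM in KPC490, 17.3 in KPC180, 15.2 in KPC469 and 3.42 to 4.55 in the other lines. Ptges was lowest in KPC469 and next lowest in KPC490, and how its level relates to Egr1 was not tested. Fos was at 11.7 CPM in KPC490 and 1.52 in KPC850. The cytokine gene Il1b had 0 counts in every line, while its receptor gene Il1r1 ran from 23.4 CPM in KPC630 to 128 in KPC850. Across the 51 filtered genes of these lists the median range was 1.28 log2 units, against 0.96 over all kept genes.

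The genes most like each wide PGE2 gene were ranked by Pearson r of log2 CPM over the 6 lines, within the wider set. These values describe 6 libraries, and a high r is easily reached among so many genes. For Slco2a1 the closest was Pla2r1, the receptor of secreted phospholipases (r = 0.98), at 34.1 CPM in KPC850 and 0.272 and 0.319 in KPC469 and KPC630. Without the 2 lines farthest from the Slco2a1 median, KPC850 and KPC630, r was 0.99. Pla2r1 was picked for its r over all 6 lines, and the lines left still include KPC469 at 0.272 CPM. The r of 0.99 is therefore no independent support for the likeness. For Hpgd it was the smooth muscle actin gene Acta2 (r = 0.996), at 21.6 CPM in KPC630 and 0.539 or less elsewhere. Both genes had too few counts outside KPC630 to be compared there, so this likeness rests on 1 line. Acta2 also marks smooth muscle and activated fibroblasts. In KPC630 the fibroblast genes Col1a1, Pdgfra and Col1a2 were at 2.66, 1.12 and 0.0532 CPM, and Dcn and Lum had 0 counts. Of the 5 markers of other cell types that reached 1 CPM, Col1a1, Kdr and Cd68 were highest in KPC630. Pdgfra was highest in KPC469 and Cela1 in KPC180. How these levels relate to Hpgd in KPC630 was not tested. Next for Hpgd was Gm43305, with 10.4 CPM in KPC630 and 0 counts in the other lines.

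For Ptges, Plcb3, a phospholipase C gene, had r = 0.998 and Klhl18 had r = 0.994. Plcb3 was at 124 CPM in KPC469 and 178 to 186 in the other lines. Without KPC469 and KPC490, r was 0.68 for Plcb3 and 0.95 for Klhl18, so the likeness of Plcb3 rests on those lines. Klhl18 was at 8.83 CPM in KPC469. In the lines left it spanned only 14.4 CPM in KPC180 to 15.999 in KPC142, and whether this exceeds counting error was not tested. Ptges in KPC630 could not be separated from KPC850 or from KPC142. The r of 0.95 therefore does not show that the likeness of Klhl18 holds beyond KPC469 and KPC490. For Ptgs2 the closest was Hs6st1, a heparan sulfate sulfotransferase gene (r = 0.98), from 24.7 CPM in KPC630 to 60.9 in KPC469, followed by Acsf3 and Rasgrp3. For Ptgs1 it was the cathepsin gene Ctsz (r = 0.98), then Mrps15 and Slc1a5, and for Ptger4 Ap2a1, Eif4a1 and Zfp654 (each r = 0.98). Pearson r takes no account of the size of a change, and these genes varied less than Ptgs1 and Ptger4. Ctsz ran from 104 to 187 CPM, Ap2a1 from 116 to 133, Eif4a1 from 1125 to 1636 and Zfp654 from 17.0 to 21.2. Magi3 was the third for Hpgd, at 171 CPM in KPC630, and Ttc30b and Ube2f followed Pla2r1 for Slco2a1.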

How the data were processed

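Polyadenylated RNA of 6 cell lines was sequenced with a stranded kit, per the labels' protocols. The authors deposited expected counts, RSEM's estimates per Ensembl gene. Per the submitters' processing notes, RSEM 1.3.3, STAR 2.7.10b and Trimmomatic 0.36 were used, with the GRCm39 build. Between 5.28% and 5.66% of values in a library had a fractional part, and all were rounded. Symbols from GENCODE vM21 matched 52029 of 56953 identifiers. That annotation is on GRCm38, so it gave names, chromosomes, gene order and exon lengths only.

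Analysis used R 4.3.3, edgeR 4.0.16 (TMM factors, filterByExpr with no design, log2 CPM with a prior count of 2) and, as an alternative, DESeq2 1.42.0 size factors. No test was made, as no line has a group. Ratios have exact conditional binomial 95% intervals, and a line at 0 counts was set to a floor of 3. CPM per kb divides by the union of a gene's exons. The range rule and the intervals were tested on simulated data.

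The genes and lists were chosen with earlier results of these data known. Named are all 10 genes, up to 3 genes of each list with a range of 4-fold or more, widest first, the 3 genes most like each wide one, and chromosome neighbours of Ptges, Ptgs2 and Hpgd. A gene among those most like Ptges is not reported here. Outside this rule, Akr1b3, Lta4h, Pla2g2a, Il1b, Il1r1, Ptgs2os, Ptgs2os2, Ptges3-ps and the overlapping genes Ttc33 and Gm45540 were chosen after their values were seen.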

Additional observations from a re-analysis of the deposited data

Results flagged for a closer look

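In the 6 lines, 2 of the 10 genes had a line set far from the rest, judged by the gap to the nearest line over the whole range of log2 CPM. Chance alone marks about 1 gene in 20, and each value rests on 1 library. Both genes are among the 9 that reached 10 CPM in any line, and 6.69% of all 10234 such genes met the same criterion. Hpgd reached 10 CPM in KPC630 alone, so its entry into that set depended on the line that stands apart. For Ptges the lowest line, KPC469 at 0.545 CPM, took 0.877 of the range as its gap to KPC490 at 65.7 CPM. For Hpgd the highest line, KPC630 at 17.0 CPM, took 0.812 of the range as its gap to KPC850 at 0.583 CPM. The neighbouring genes on the chromosome did not share these levels, and whether other changes at the loci or in these cultures moved with them was not tested.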

How the results depend on the processing

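DESeq2 size factors or unadjusted totals moved no library by more than 0.0206 log2 units, and all 20 recomputed ratios of the highest to the lowest line lay within their counting intervals. No log2 ratio below changed sign. The number of filtered genes with a wide range was 4. It was 5 when 10 CPM in any 1 line was asked for, 6 with no filter, 7 at a fold of 2 and 3 at a fold of 8, and 3 to 4 with 1 line left out. The fold chosen therefore sets this count. With 1 line left out, the log2 ratio of Ptgs2 to the median of the other lines was 1.14 to 1.74 for KPC469 and -3.21 to -2.66 for KPC630. For Ptges in KPC469 it was -7.45 to -7.29 and for Hpgd in KPC630 5.01 to 5.28. A prior count of 0.5 gave -7.61 and 5.44. The median share of Ptges among the synthase transcripts was 21.2%, and 20.9% by longest transcript. The same change of length, chosen after seeing the data, reversed which cyclooxygenase gene led in KPC142 (Ptgs2 share 54.9% to 48.0%) and KPC850 (54.8% to 47.9%). It took the median share of Ptgs2 from 56.5% to 49.6% and that of Slco2a1 from 32.3% to 44.8%. Depth limits Hpgd outside KPC630, Ptges in KPC469 and Ptger4 in KPC142 and KPC180, each with 13 counts or fewer. With 1 library per line, the spread between cultures is unknown.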
